A study of Mus musculus with 14 samples.

Results

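The mitochondrial ribosomal protein genes, taken as every gene whose symbol begins with Mrpl or Mrps followed by a digit, made up 78 of the 24091 genes in the counts table. By symbol, 49 encode proteins of the large subunit and 29 proteins of the small subunit of the mitochondrial ribosome. Their mRNA was measured by bulk RNA-seq of T cells (200000 per mouse) sorted from the spleen, with 1 library per mouse. The 8 CP CML mice were Mir142+/+BCR-ABL and carried a mouse model of chronic phase chronic myeloid leukemia. The 6 BC CML mice were Mir142-/-BCR-ABL, lacked miR-142 in every tissue, and modelled blast crisis. Mice of both groups were C57Bl/6j (CD45.2), male and female, 6 to 10 weeks old, and carried the SCLtTA/BCR-ABL transgenes, in which the Scl regulatory element drives a tetracycline-controlled activator of BCR-ABL in blood stem and progenitor cells. BCR-ABL was switched on for 3 weeks by withdrawal of tetracycline in both groups. No mouse without BCR-ABL was among these samples, so the comparison is between Mir142 genotypes in leukemic animals. The column names of the counts give all CP CML mice one number before the mouse's own and all BC CML mice another. What these numbers stand for is not stated, and any difference that they mark cannot be told apart from genotype.

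Mitochondria have ribosomes of their own, which translate the few mRNAs of the mitochondrial genome into core subunits of the respiratory chain and of ATP synthase. All proteins of these ribosomes are encoded in the nucleus, made in the cytosol and imported, and the RNA of both subunits is transcribed from mitochondrial DNA. Some of the proteins descend from bacterial ribosomal proteins and others were gained in the mitochondrial lineage. T cells raise mitochondrial translation when they are activated.

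The gene that differs by design is Mir142, with 302 to 650 reads per CP CML mouse at its primary transcript and 0 in each of the 6 BC CML mice. Its mature products are shown because their seeds (bases 2 to 8, in capitals) set which 3′UTR sites they could pair with. Both sequences are from RefSeq (GRCm38.p6) and lie on the plus strand, at chr11:87756867-87756887 for the 5p arm and chr11:87756903-87756925 for the 3p arm.
mmu-miR-142a-5p: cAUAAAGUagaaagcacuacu
mmu-miR-142a-3p: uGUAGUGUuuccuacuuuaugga

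The strongest common form of site, the match to the 7 bases of the seed followed by an A (8mer), was looked for in the longest 3′UTR of each gene in GENCODE vM21 (GRCm38), over protein-coding transcripts. It is ACTTTATA for the 5p arm and ACACTACA for the 3p arm. Of the 78 members, 3 (3.85%) held the 5p site and 1 (1.28%) the 3p site, against 5.22% and 3.04% of the 11509 tested genes with a 3′UTR. The median 3′UTR was 390 bases for members and 1187 bases for tested genes, so that members offer fewer bases for a match. The sites are printed with their neighbouring bases in lower case and the match in capitals. They lie at chr6:147073891-147073898 (plus strand, bases 3068 to 3075 of the 3′UTR of Mrps35), chr6:125194538-125194545 (plus strand, bases 1119 to 1126 for Mrpl51), chr1:4773347-4773354 (minus strand, bases 3110 to 3117 for Mrpl15) and chr11:115412471-115412478 (plus strand, bases 1749 to 1756 for Mrpl58).
Mrps35, 5p site: gatgtagaACTTTATAatgtatta
Mrpl51, 5p site: taccaagtACTTTATAgtgagcta
Mrpl15, 5p site: catgatagACTTTATAttgttttt
Mrpl58, 3p site: gcgttttaACACTACAataccaag

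These 4 genes did not move together. Mrps35 fell (log2 fold change -0.51), Mrpl51 rose (0.18), and Mrpl15 (-0.10) and Mrpl58 (-0.09) did not pass the test. The sites of Mrps35, Mrpl51 and Mrpl58 lie past the end of the gene as listed with the counts, so that whether the counted transcripts carry them was not tested. A sequence match describes the annotation and shows no binding.

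Of the 78 members, 77 passed the filter on low counts and were tested, each with reads in every mouse (77 to 2154 per gene and mouse). BC CML was compared with CP CML over 12248 genes by edgeR's quasi-likelihood test, and a gene is called here when its Benjamini-Hochberg adjusted p is below 0.05. Fold changes are log2 of BC CML over CP CML. In all, 33 of the 77 members were called (42.9%), where 65.2% of all tested genes were. Only 7 members rose (9.09%), against 32.6% of tested genes, and 26 fell (33.8%), against 32.7%. The share of members that fell was therefore near the background, and the share that rose was below it. Among the called genes, no member reached a log2 fold change of 1 in size, as 12.9% of tested genes did. The median log2 fold change was -0.08 for the members and -0.01 for all tested genes. In 3 members every BC CML mouse lay above every CP CML mouse and in 10 every BC CML mouse lay below, in all 13 of 77, where 36.9% of tested genes had groups that did not overlap. In bulk RNA, a smaller share of cells of a type and less RNA per cell cannot be told apart.

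**Figure D1:**
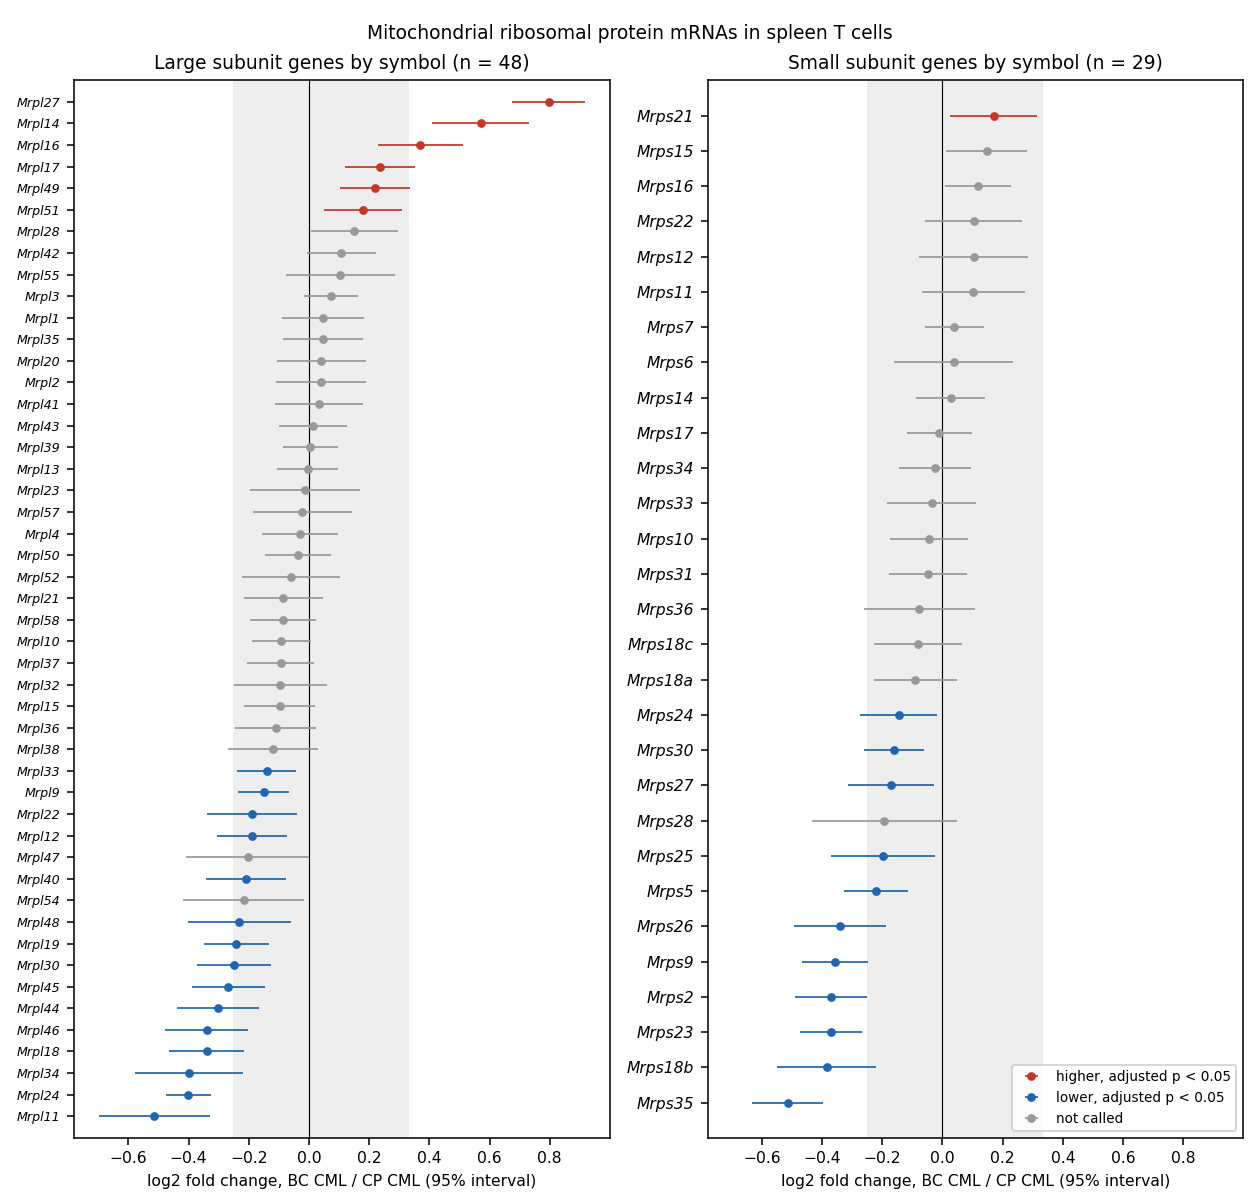
Log2 fold change of each tested member with its 95% interval, large subunit genes on the left (48) and small subunit genes on the right (29), in order of change. Red points rose, blue points fell, grey points were not called, and the grey band spans the quartiles of all tested genes (-0.25 to 0.33). Most members sit inside the band, with Mrpl27 (0.80) and Mrpl14 (0.57) far to its right and Mrpl11 (-0.51) and Mrps35 (-0.51) far to its left. More members lie to the left of the band than to its right.

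The 44 members that were not called had changes of at most 0.22 on the log2 scale in either direction. Their 95% intervals, in the fit without a covariate, lay between -0.43 and 0.29. With the naive T cell marker score in the fit, some of their estimates lay outside these limits, such as Mrpl55 (0.51) and Mrps6 (-0.51), neither of which was called in that fit. Of the 44, Mrpl42 was called higher with the myeloid score (0.26, adjusted p = 0.0099), and Mrpl28 (0.15, adjusted p = 0.0443) and Mrps16 (0.12, adjusted p = 0.0441) with the proliferation score.

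The difference between the subunits was not tested. In the large subunit, 6 of 48 tested genes rose and 15 fell (median -0.09), and in the small subunit 1 of 29 rose and 11 fell (median -0.08). The 31.2% of large and 37.9% of small subunit genes that fell were near the 32.7% of all tested genes, and the 12.5% and 3.45% that rose were below the 32.6%. Summed over the large subunit, the normalized count per mouse was 1286 to 1386 CPM (reads scaled to the library size of the mouse, median 1325) in CP CML and 1166 to 1325 (median 1245) in BC CML, and the ranges overlapped. Over the small subunit the sum was 650.3 to 689.2 CPM (median 665.35) in CP CML and 589.5 to 642.7 (median 605.0) in BC CML, with no overlap. The ratio of the sums, large over small, was 1.94 to 2.02 in CP CML and 1.96 to 2.11 in BC CML. All members together took 0.194% to 0.207% of the reads in CP CML and 0.175% to 0.198% in BC CML.

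Symbols do not match the place of every protein. The proteins of Mrps18a and Mrps30 are built into the large subunit, and that of Mrps36 belongs to the ketoglutarate dehydrogenase complex of the citric acid cycle. With these 3 moved, 6 of 50 large subunit genes rose and 16 fell, and 1 of 26 small subunit genes rose and 10 fell. The shares that fell (32% and 38.5%) were near the 32.7% of all tested genes. Those that rose (12% and 3.85%) were below the 32.6%. Of the 3 genes, Mrps30 fell (log2 fold change -0.16, SE 0.05, adjusted p = 0.00593), while Mrps18a (-0.09) and Mrps36 (-0.08) were not called. With the myeloid marker score in the fit, Mrps30 was not called (-0.16, SE 0.08, adjusted p = 0.0921).

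The members were also listed by whether their protein has a counterpart in the bacterial ribosome. Of 30 tested large subunit genes with a bacterial homolog, 4 rose and 10 fell (median -0.09), and of 18 tested that are specific to mitochondria 2 rose and 5 fell (median -0.07). In the small subunit, 1 of 16 genes with a bacterial homolog rose and 4 fell (median 0.01), and of the 10 listed as specific to mitochondria none rose and 6 fell (median -0.18). One of these 6 is Mrps18b, a diverged relative of a bacterial protein that was listed with the mitochondria-specific genes. Of all tested genes 32.6% rose and 32.7% fell, and with so few genes in a class each gene moves its share by several percent. The difference between these classes was not tested.

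Mrpl27 had the largest rise. Its bacterial homolog reaches toward the site where the ribosome forms peptide bonds. Mrpl27 is listed on the plus strand at chr11:94653791-94660087 (mm10), and its normalized count was lowest at 10.11, median 10.89 and highest 12.09 CPM in the 8 CP CML mice. In the 6 BC CML mice it was lowest at 17.58, median 19.38 and highest 19.8 CPM. The lowest BC CML value lay well above the highest CP CML value (log2 fold change 0.80, SE 0.06, adjusted p = 1.68e-09).

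Mrpl14 followed, a protein at the face of the large subunit that meets the small one, where the assembly factor Malsu1 docks. It had 6.312 to 8.403 CPM (median 7.329) in CP CML and 10.18 to 12.08 (median 10.81) in BC CML. The groups did not overlap (log2 fold change 0.57, SE 0.08, adjusted p = 3.79e-06).

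Mrpl16, which lies beside the site of peptide bond formation, had 16.43 to 21.19 CPM (median 19.58) in CP CML and 21.44 to 26.58 (median 25.85) in BC CML. The lowest BC CML mouse was just above the highest CP CML mouse, and the log2 fold change was 0.37 (SE 0.07, adjusted p = 0.000106). Of the 4 genes listed for proteins around that site, only Mrpl16 was called, where 65.2% of all tested genes were. Mrpl2 (0.04), Mrpl3 (0.07) and Mrpl4 (-0.03) did not pass the test, and Mrpl27 was not in this list.

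The other large subunit genes that rose did so by less, and their groups overlapped. Mrpl17 had 18.18 to 21.95 CPM (median 20.48) in CP CML and 21.44 to 25.13 (median 24.51) in BC CML, which gave a log2 fold change of 0.24 (SE 0.06, adjusted p = 0.00118). Mrpl49 rose by 0.22 and Mrpl51 by 0.18 on the log2 scale.

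Among the genes that fell, Mrpl11 had the largest change in the large subunit. Its protein forms the base of the stalk on which translation GTPases act. It had 18.05 to 22.55 CPM (median 20.27) in CP CML and 10.47 to 16.3 (median 14.35) in BC CML, with no overlap. The log2 fold change was -0.51 (SE 0.09, adjusted p = 6.35e-05).

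Mrpl12 encodes the copies of the protein that make up the stalk itself. It had 29.14 to 34.08 CPM (median 31.04) in CP CML and 23.75 to 30.11 (median 27.45) in BC CML, and it fell by 0.19 on the log2 scale (SE 0.06, adjusted p = 0.0061) with overlapping groups. With the myeloid marker score in the fit, Mrpl12 was not called (-0.17, SE 0.09, adjusted p = 0.125). With the naive T cell marker score its estimate was 0.11 (SE 0.16), also not called. Mrpl10, which ties the stalk to the ribosome, was not called (-0.09, adjusted p = 0.0953).

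The rim of the tunnel through which the new protein leaves was represented by 5 genes, of which 3 fell and none rose (median -0.20). The 60% called was near the 65.2% of all tested genes, of which 32.7% fell and 32.6% rose. With so few genes, each one moves the share by much. Mrpl24 was the member with the most reads for its length among large subunit genes, at a mean of 90.3 CPM per kilobase in CP CML and 68.3 in BC CML. Its count was 97.45 to 111.4 CPM (median 107.7) in CP CML and 78.03 to 83.07 (median 80.86) in BC CML, with wide space between the groups. The log2 fold change was -0.40 (SE 0.04, adjusted p = 2.25e-08), the smallest adjusted p among members that fell.

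Mrpl45 anchors the ribosome at the inner membrane, next to the tunnel exit. It had 24.61 to 30.66 CPM (median 26.11) in CP CML and 20.08 to 23.76 (median 22.14) in BC CML, again without overlap (log2 fold change -0.27, SE 0.06, adjusted p = 0.000556). Mrpl22 fell by 0.19 on the log2 scale, and Mrpl23 (-0.01) and Mrpl47 (-0.20) were not called.

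A further pair of large subunit genes with a bacterial homolog fell with overlapping groups. Mrpl34 had 10.27 to 12.8 CPM (median 11.36) in CP CML and 7.096 to 10.41 (median 8.746) in BC CML, which gave a log2 fold change of -0.40 (SE 0.09, adjusted p = 0.000506). Mrpl18 had 45.07 to 53.13 CPM (median 51.15) in CP CML and 36.33 to 47.99 (median 38.96) in BC CML, which gave a log2 fold change of -0.34 (SE 0.06, adjusted p = 7.37e-05). Mrpl58, a peptidyl-tRNA hydrolase that frees stalled chains and is also part of the large subunit, had 34.31 to 39.09 CPM (median 36.97) in CP CML and 30.54 to 37.62 (median 35.08) in BC CML and was not called (-0.09, adjusted p = 0.152).

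In the small subunit the largest change was that of Mrps35, a protein specific to mitochondria, listed on the plus strand at chr6:147042770-147070902. It had 20.5 to 25.89 CPM (median 22.89) in CP CML and 15.11 to 17.41 (median 16.05) in BC CML. No BC CML mouse reached the lowest CP CML mouse (log2 fold change -0.51, SE 0.06, adjusted p = 2.94e-07).

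Mrps23, also specific to mitochondria, had 40.81 to 48.9 CPM (median 44.46) in CP CML and 32.88 to 38.51 (median 34.01) in BC CML. The groups did not overlap (log2 fold change -0.37, SE 0.05, adjusted p = 3.7e-06). Mrps2, which has a bacterial homolog, had 27.57 to 32.17 CPM (median 29.94) in CP CML and 20.31 to 25.97 (median 23.37) in BC CML. It fell by 0.37 on the log2 scale (SE 0.06, adjusted p = 1.87e-05), also without overlap. Mrps9 (-0.36) and Mrps26 (-0.34) were the other small subunit genes whose groups did not overlap.

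The genes Mrps18a, Mrps18b and Mrps18c, descend from one bacterial small subunit protein, and reads that they share could have been split between them. Mrps18b had 16.74 to 22.31 CPM (median 20.23) in CP CML and 13.86 to 18.05 (median 14.51) in BC CML, and it fell with overlapping groups (log2 fold change -0.38, SE 0.08, adjusted p = 0.00033). With the myeloid marker score in the fit, it was not called (-0.25, SE 0.12, adjusted p = 0.0962). Mrps18a had 14.62 to 18.21 CPM (median 17.1) in CP CML and 14.68 to 16.9 (median 15.44) in BC CML, and Mrps18c had 18.33 to 23.59 (median 20.63) and 16.52 to 21.62 (median 19.9). Neither of these was called (adjusted p = 0.234 and 0.308).

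Mrps21 was the small subunit gene with the most reads for its length, at 53.8 CPM per kilobase in CP CML and 60.5 in BC CML, and the only one called higher. It had 20.65 to 26.11 CPM (median 22.96) in CP CML and 23.32 to 30.22 (median 25.82) in BC CML, with much overlap (log2 fold change 0.17, SE 0.07, adjusted p = 0.0383). The call was lost without CP CML mouse 1, 2, 3 or 7 or BC CML mouse 2, 3 or 5. It was also lost with upper-quartile scaling (adjusted p = 0.0858), the replicate number as a block (0.0988) and the myeloid marker score (0.127). With the naive T cell marker score the estimate was -0.19 and was not called. Mrps30 had 33.17 to 38.47 CPM (median 35.57) in CP CML and 28.61 to 33.83 (median 32.18) in BC CML, and Mrps36 had 8.168 to 10.65 (median 9.083) and 7.431 to 10.29 (median 8.613).

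**Figure D2:**
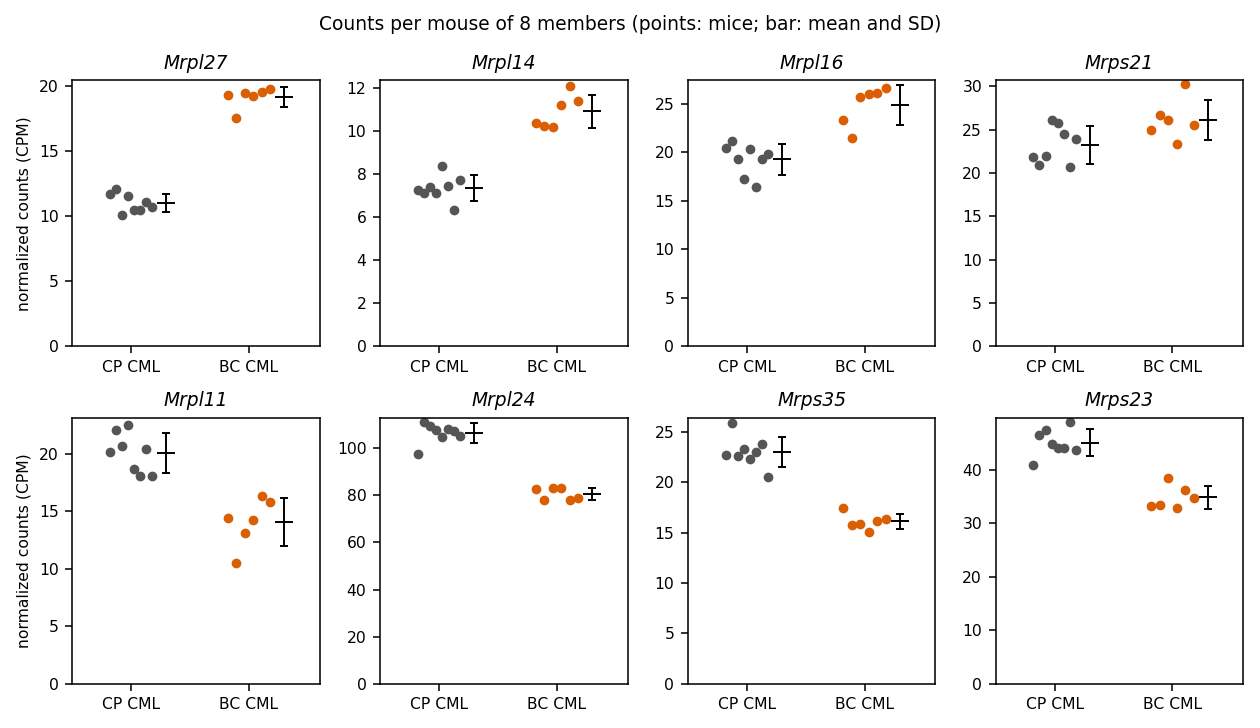
Normalized counts (CPM, axes from 0) of 8 members, each point 1 mouse, with the mean and SD beside each group (8 CP CML, 6 BC CML). The groups separate for Mrpl27, Mrpl14, Mrpl16, Mrpl11, Mrpl24, Mrps35 and Mrps23 and overlap for Mrps21.

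Levels between members spanned a wide range in relation to gene length. In CP CML the means ran from 2.91 to 90.3 CPM per kilobase in the large subunit (median 17.4) and from 3.29 to 53.8 in the small subunit (median 17.0). After Mrpl24, the highest large subunit genes were Mrpl30 at 71.8 and Mrpl18 at 52.8 CPM per kilobase in CP CML. These levels use the gene lengths listed with the counts, and the 3′UTR of Mrps35 in GENCODE alone (3168 bases) is longer than its listed length of 1.059 kilobases.

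Where listed genes overlap, a count could hold reads of a neighbour or lack some of its own. Mrpl53 was the 1 member that failed the filter, with 0 reads in every mouse. Its listed span lies wholly inside that of Ccdc142 on the same strand, which had 1968 reads over the 14 mice. Whether the 0 reads of Mrpl53 come from this overlap or from absent mRNA was not tested. In all, 14 members overlap another listed gene, 10 of them with a gene on the opposite strand. The strand setting of the counting is not given in the sources used here, so that for these 14 the reads of partner genes cannot be told apart. Among them are Mrpl24, which shares 833 bases with Rrnad1 (log2 fold change -0.02, not called), and Mrps34, which lies inside Mapk8ip3 on the opposite strand.

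Of the 78 members, 27 (34.6%) share a divergent start with a gene on the other strand within 1000 bases, against 14.5% of tested genes. Such neighbours moved alike in some pairs and apart in others. Mrpl14 and Tmem63b, 154 bases apart, both rose (0.57 and 0.55), and Mrpl18 and Tcp1, a chaperonin subunit gene 238 bases away, both fell (-0.34 and -0.32). Mrpl27 rose by 0.80 while Eme1, a nuclease gene whose start is 37 bases away, was not called (0.08). Mrpl49 rose by 0.22 while Fau, the cytosolic ribosomal protein gene 137 bases away, fell by 0.72 on the log2 scale. Mrpl46 and Mrps11 are members that start 42 bases apart, and the first fell (-0.34) while the second was not called (0.10).

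Chromosome 11, which carries Mir142, held 11 members. Of these 11, 1 rose, 5 fell and 5 were not called, where 65.2% of all tested genes were called. Mrps23 is the nearest, with its start 0.44 megabases from Mir142, and it fell (-0.37), while Mrpl27 is 6.9 megabases away and rose (0.80). Mrpl10 (-0.09, not called) and Mrpl45 (-0.27) lie 9.28 and 9.56 megabases away on the same side. Whether DNA linked to the targeted Mir142 allele differs between the groups was not tested.

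RefSeq (GRCm38.p6) promoter windows, 250 bases before to 50 bases after the start, were matched for 69 members, 63 of them with a start within 100 bases of the listed one. Cores bound by 3 factors known at genes for mitochondrial proteins were searched on both strands. The ETS core bound by GABP, CCGGAAG or CTTCCGG, was in 25 windows (36.2%), against 19.3% of tested genes and 12% of all genes with a window. The NRF1 core, GCGCATGC or GCATGCGC, was in 8 (11.6%), against 5.6% and 3.7%. The YY1 core, AAGATGGC or GCCATCTT, was in 12 (17.4%), against 5.0% and 3.3%. The ETS core was in 33.3% of the 24 windows of members that fell, 57.1% of the 7 of members that rose and 32.4% of the 37 of members not called. In the same order, the NRF1 core was in 16.7%, 14.3% and 8.1% of windows and the YY1 core in 8.3%, 14.3% and 24.3%. A match describes the letters of a window, and binding was not measured here.

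The 110 bases before the RefSeq start are shown for 4 members with such a core, a pair that rose (Mrpl27 and Mrpl17) and a pair that fell (Mrpl22 and Mrpl34), so that the same letters can be seen beside changes of either direction. They were chosen after the values were seen. Capitals mark the ETS core in Mrpl27 and Mrpl34, the NRF1 core in Mrpl17, and both, ETS first, in Mrpl22. The windows are chr11:94653681-94653790 (plus strand) for Mrpl27, chr7:105811088-105811197 (minus strand) for Mrpl17, chr11:58171554-58171663 (plus strand) for Mrpl22 and chr8:71464816-71464925 (plus strand) for Mrpl34.
Mrpl27: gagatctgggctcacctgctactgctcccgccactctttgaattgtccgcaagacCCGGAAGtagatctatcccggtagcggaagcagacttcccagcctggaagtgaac
Mrpl17: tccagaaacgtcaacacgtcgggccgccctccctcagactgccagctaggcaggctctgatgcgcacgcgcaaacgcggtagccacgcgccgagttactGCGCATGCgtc
Mrpl22: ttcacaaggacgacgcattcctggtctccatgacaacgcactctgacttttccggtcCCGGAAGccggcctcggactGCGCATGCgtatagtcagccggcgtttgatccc
Mrpl34: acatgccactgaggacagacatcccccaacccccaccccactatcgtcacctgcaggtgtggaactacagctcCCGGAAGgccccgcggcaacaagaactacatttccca

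Of the genes of the factors that bind these cores, Nrf1 (log2 fold change -0.04), Yy1 (-0.09) and Gabpa (-0.02), the DNA-binding subunit of GABP, were not called. The genes of its partner subunits moved apart, with Gabpb1 higher (0.15, SE 0.04, adjusted p = 0.00447) and Gabpb2 lower (-0.13, SE 0.05, adjusted p = 0.0208), both with overlapping groups. Myc (0.02), a driver of ribosome production, was not called. Of 11 tested regulators of mitochondrial genes, 3 rose and 3 fell. Atf5, a factor of the mitochondrial stress response, rose by 1.01 from 5.077 ± 0.854 CPM (SD, n = 8 mice) to 10.27 ± 1.47 (SD, n = 6 mice), and Esrra, a nuclear receptor that acts with the PGC-1 coactivators, rose by 0.37 on the log2 scale. The coactivators Pprc1 (-0.55) and Ppargc1b (-0.34) fell.

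Genes that act with the mitochondrial ribosome were described in the same fit, in which 32.6% of all tested genes rose and 32.7% fell. Of 5 further ribosomal proteins with other symbols, 4 fell and none rose, among them Dap3 (-0.38), a small subunit GTP-binding protein, and Gadd45gip1 (-0.30), a large subunit protein. Of 24 assembly factors, 14 fell and none rose (median -0.25). Mrm1, which methylates the large ribosomal RNA, fell from 23.7 ± 1.77 CPM (SD, n = 8 mice) to 13.9 ± 1.52 (SD, n = 6 mice), which gave a log2 fold change of -0.77 (SE 0.07, adjusted p = 4.83e-08). Nsun4, a methyltransferase of the small ribosomal RNA, fell by 0.70 on the log2 scale.

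The 20 genes for charging mitochondrial tRNA were lower in 14 cases and higher in 2 (median -0.31), where 32.7% of all tested genes fell and 32.6% rose. Gatc and Qrsl1 encode subunits of one enzyme that makes glutamine-charged tRNA, and they moved apart, with Gatc rising by 0.90 and Qrsl1 falling by 0.46 on the log2 scale. Wars2, the tryptophan enzyme, fell by 0.74, and Fars2, the phenylalanine enzyme, rose by 0.20. Of 18 translation factors, 4 rose and 7 fell (median 0.06). Oxa1l, which inserts new proteins into the inner membrane, rose (0.34), as did Slirp (0.51), which stabilises mitochondrial mRNA. Its partner Lrpprc fell (-0.29), as did the initiation factor Mtif3 (-0.41).

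Genes for expression and upkeep of mitochondrial DNA fell in 11 of 17 cases and rose in none (median -0.19). Among all tested genes 32.7% fell and 32.6% rose. Tfam, which packs the mitochondrial genome, fell by 0.33 and Tfb2m, a factor for starting its transcription, by 0.56 on the log2 scale. The mRNAs that are encoded in the mitochondrial genome and translated by these ribosomes were not analysed here.

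The gene sets nearest in kind, the cytosolic ribosome and the respiratory chain, are given beside the members for scale. Of 80 tested cytosolic ribosomal protein genes, 77 fell and 1 rose (median -0.68). Of 75 tested nuclear genes for respiratory chain and ATP synthase subunits, 25 rose and 14 fell (median 0.07). The members' median of -0.08 lay between these values, and the difference between the sets was not tested.

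**Figure D3:**
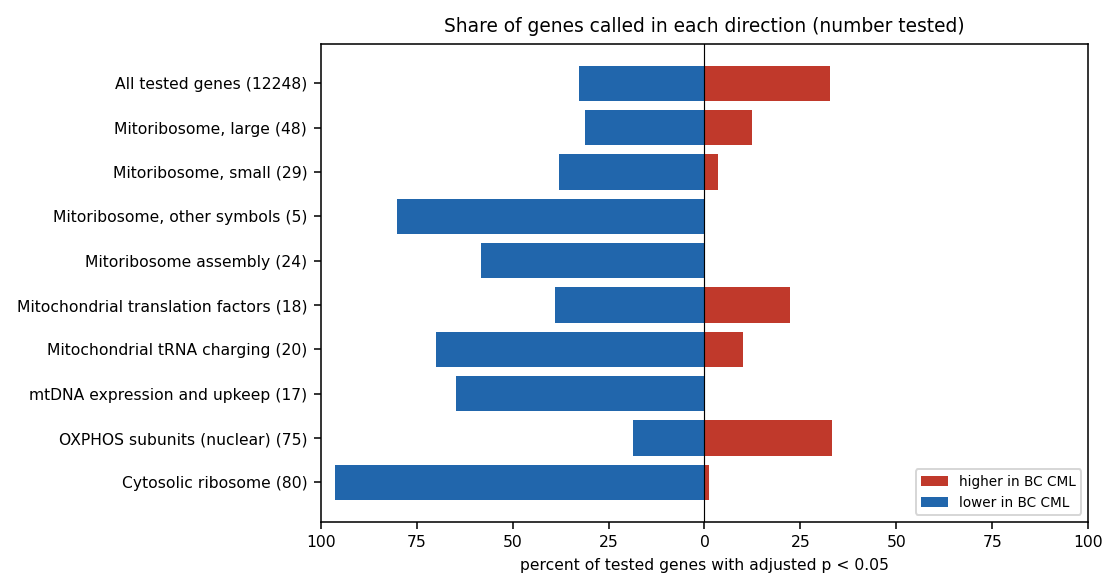
Percent of tested genes that rose (red, right) or fell (blue, left) in BC CML for all tested genes, the mitochondrial ribosome subunits and related sets, with the number tested in brackets. The mitochondrial ribosome (31.2% of large and 37.9% of small subunit genes fell) lies far from the cytosolic ribosome (96.2% fell).

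Markers of other cells and of T cell state moved with the groups. All 11 T cell markers had reads in every mouse, 5 were higher and 2 lower in BC CML, and their sum was 4216 to 4837 CPM in CP CML and 5201 to 5487 in BC CML. Of 12 myeloid markers, such as Lyz2 and Csf1r, 11 were higher in BC CML, none of the 12 was at 0 in every mouse, and their sum was 72.01 to 700.2 CPM in CP CML and 821 to 2140 in BC CML. All 8 naive T cell markers, such as Ccr7, were lower (5061 to 6469 and 2826 to 4029 CPM), and 9 of 11 effector and memory markers were higher (988.3 to 1227 and 1719 to 2527 CPM). Of the 6 B cell markers in the table, all tested, 5 were higher (median log2 fold change 1.46), and their sum was 54.67 to 162.9 CPM in CP CML and 95.92 to 475.6 in BC CML. Of 5 tested erythroid markers 2 were higher (18.02 to 72.73 and 47.97 to 83.57 CPM for the list). Of 10 proliferation markers 2 were lower and none higher (657.1 to 839.6 and 601.2 to 1029 CPM). The part of these cells in the changes of the members was not tested beyond fits that hold a marker score.

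With the mean log2 level of the proliferation markers in the fit, all 33 called members were called in the same direction. With the myeloid markers, 16 were, among them Mrpl27 (0.78, SE 0.10), Mrpl14 (0.51, SE 0.13), Mrpl24 (-0.37, SE 0.06) and Mrps35 (-0.50, SE 0.09), and the median SE of the members went from 0.06 to 0.10. With the naive T cell markers 3 were, Mrpl27 (1.05, SE 0.17), Mrpl16 (0.61, SE 0.20) and Mrpl34 (-0.87, SE 0.23), 8 turned in sign without being called, and the median SE rose to 0.19. Calls fell over all tested genes too, from 3987 higher and 3999 lower to 2703 and 2756 with the myeloid score and to 1223 and 801 with the naive score. The naive marker score correlated with the group at -0.946 over the 14 mice and the myeloid score at 0.774, so that over these mice the naive score ran nearly in parallel with genotype.

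**Figure D4:**
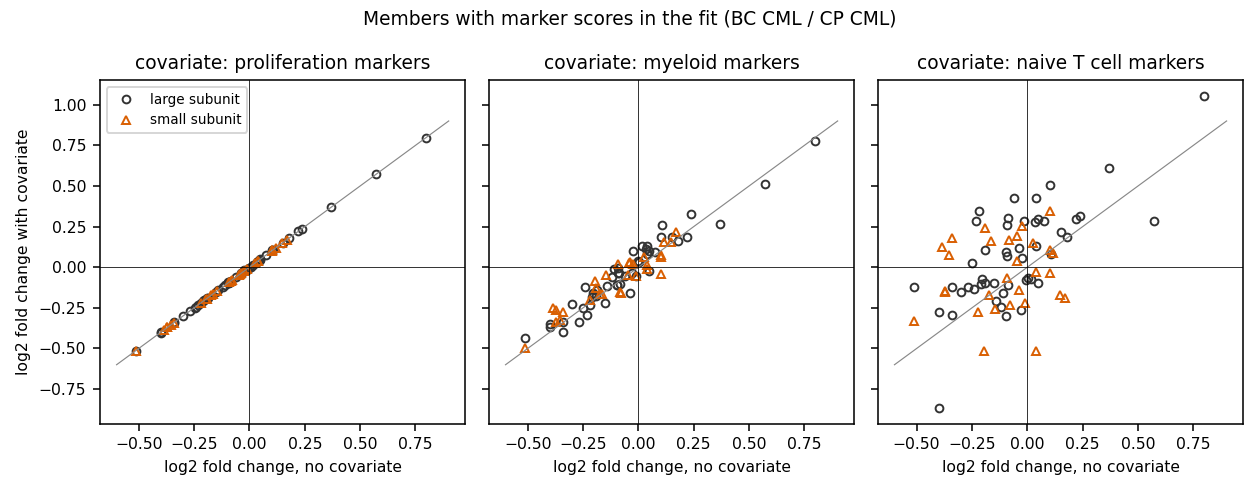
Log2 fold change of each member without a covariate (x axis) against the fold change with the mean level of proliferation, myeloid or naive T cell markers in the fit (y axis), circles for the large and triangles for the small subunit. Points lie on the line of equality with the proliferation markers, near it with the myeloid markers, and scatter with the naive markers, where the median SE was 0.19.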

How the data were processed

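Per the labels and the paper's methods, the authors trimmed paired reads of 101 bases with Trimmomatic and FASTP, aligned them to mm10 with STAR (version 2.6.0 in the submitters' processing notes) and counted reads per gene with HTSeq (0.11.1). The deposited table holds their raw counts for 24091 genes, beside chromosome, start, end, strand and length. The annotation and strand setting are not given in the sources used here. Depth was 15703702 to 19914531 reads per mouse.

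Counts were filtered by filterByExpr (12248 genes), scaled by TMM and tested with edgeR 4.0.16 in R 4.3.3 (glmQLFit with robust estimation, glmQLFTest, BC CML against CP CML, no covariate). Adjustment was by Benjamini-Hochberg over all tested genes. SEs were derived from the F statistic and include differences between mice. CPM use TMM library sizes, and levels between genes use CPM per kilobase of listed length. The script was tested on simulated counts. No 2 libraries of a group differed by as little as sampling noise (chi-square per degree of freedom 3.1 to 22.9).

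The members and all lists were chosen with earlier results of these data known, so no p is given over a list. Within each subunit, the 4 members with the highest and the 4 with the lowest change among those called with an average log2 CPM of at least 3 are given per mouse range, plus Mrps18a, Mrps18b, Mrps18c, Mrps30, Mrps36, Mrpl58, Mrps23, Mrpl12, Mrpl45, the member of each subunit with the highest level per kilobase, and any that failed the filter. Of each related list the 2 called genes with the lowest p in each direction could be named, and named regulators. Other pairs by position, and Gabpb1 and Gabpb2, were named after their values were seen. Alternatives were edgeR's likelihood ratio test (named by the authors), DESeq2 1.42.0, RLE, upper-quartile or library size scaling, no filter, more than 1 CPM in at least 6 mice, the replicate number as a block, 3 marker scores as covariates (mean log2 CPM, prior count 2), and each mouse left out. 3′UTRs were from GENCODE vM21, and promoters and microRNAs from RefSeq.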

Additional observations from a re-analysis of the deposited data

Results flagged for a closer look

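In the 46 groups of values examined by Dixon's test (the 20 members whose values are given by mouse range, the depth and the summed level of each subunit, in each group of mice), 4 had a mouse set apart from the rest, where chance alone sets apart about 5% of groups. Mrpl27 in BC CML mouse 2 had the lowest value of its group, 17.58 CPM, with the next at 19.24 CPM, and it was still above every CP CML mouse. Total reads were also lowest in BC CML mouse 2, at 16145537, with the next at 18319039. Mrpl18 in BC CML mouse 5 was highest, at 47.99 CPM, with the next at 40.42 CPM. Mrpl45 in CP CML mouse 2 was highest, at 30.66 CPM, with the next at 26.9 CPM.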

How the results depend on the processing

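Of the 33 called members, 28 kept their call and direction under all 8 alternatives of test, scaling, filter and block, and 27 in all 14 fits that left out 1 mouse. The members that did not were Mrpl48, Mrpl22, Mrpl51, Mrps25, Mrps27, Mrps24 and Mrps21. The count of small subunit genes that rose (1) was 3 with RLE scaling, 3 with the filter of more than 1 CPM, 2 with DESeq2, 2 with the proliferation score, and 0 with upper-quartile scaling, with the myeloid score and with the naive score. It ranged from 0 (without CP CML mouse 1, 2 or 7 or BC CML mouse 2 or 5) to 2 (without CP CML mouse 5 or 6 or BC CML mouse 4 or 6). With the myeloid score, 8 large and 4 small subunit genes fell and the large subunit median was -0.0467, while over all genes 2703 rose and 2756 fell. With the naive score, 2 large subunit genes rose and 1 fell, no small subunit gene fell (0), the large subunit median was 0.0627, and over all genes 1223 rose and 801 fell. With that score the estimates of Mrps21 (-0.19), Mrps18b (0.12), Mrps30 (0.16) and Mrpl12 (0.11) reversed in sign. The cause was not tested. Mice share the numbers 1 to 6 across groups, and deviations of same-numbered mice correlated between -0.273 and 0.356. Mice with different numbers were not compared in this way, so whether the numbers pair mice was not tested. With the replicate block, 6 large subunit genes rose and 13 fell, and in the small subunit 0 rose and 10 fell. No scaling moved the median of all genes by over 0.1 on the log2 scale. At 77 to 2154 reads per member and mouse, the 95% intervals of members not called allow changes of up to -0.43 or 0.29 in the fit without a covariate.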
